A study of Mus musculus with 18 samples.

Results

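Twist1, Twist2, Prrx1, Prrx2, Tbx15, Meox1, Osr1, Osr2, Tcf21 and Foxd1 encode 10 transcription factors of mesenchymal cells. They were followed here in mouse embryonic fibroblasts (MEFs) given blood transcription factors, and in cells differentiated from embryonic stem cells (ESCs) towards macrophages. The genes were chosen by name, and all 10 were found among the 20495 rows of the MEF table and among the 20066 gene names of the stage table.

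The MEFs came from embryonic day 14.5 embryos of strain 129. By their labels, the 8 libraries were from fibroblasts left untreated (uFIB), or given Scl and Lmo2 (SL), Scl, Fli1, Gata2 and Lmo2 (SFGL), or Fli1, Gata2 and Lmo2 (FGL), all sampled on days 12 and 21. Each condition is 1 library. Scl is another name of Tal1. The cells were wild-type or carried the iTal1-2A-GFP transgene, in which doxycycline turns on Tal1, and the labels do not say which were sequenced. The starting cells were sorted as negative for CD45, CD41, CD31 and CD117. Lentiviruses brought in Fli1, Gata2 and Lmo2, and the paper also describes expression vectors for all 4 factors, Tal1 among them. Whether the cells were sorted again before RNA extraction is not given in the sources used here. The other table covers 5 stages of strain 129 cells with a Brachyury GFP reporter: ESCs, which were cultured on MEFs, mesoderm (MES), hemangioblast (HB), hematopoietic progenitors (HP) and macrophages (MAC). A further stage between HB and HP, hemogenic endothelium, was not analysed here. Each stage had 2 replicates, which the authors combined into 1 value. Values are FPKM, fragments scaled to transcript length and to the size of the library, so that levels can be set side by side between genes within a library. The tables were normalized separately and levels were compared only within a table.

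Fibroblasts and other mesenchymal cells are set apart from blood cells by combinations of transcription factors that mark where in the embryo they arose. TWIST proteins are basic helix-loop-helix factors that pair with E proteins such as TCF3 and bind E-boxes, short DNA motifs of the form CANNTG. TAL1, the blood regulator supplied in SL and SFGL, belongs to the same family of proteins and also pairs with E proteins. PRRX1 and PRRX2 are homeobox factors of limb and facial mesenchyme, TBX15 is a T-box factor of skin and skeleton, MEOX1 is a homeobox factor of the somites, OSR1 and OSR2 are zinc finger factors of the odd-skipped family, TCF21 is a basic helix-loop-helix factor of visceral and epicardial mesenchyme, and FOXD1 is a forkhead factor of the kidney stroma.

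Because 9 of these genes were lower in SL and SFGL together, the DNA before their starts is shown for 4 of them, from the RefSeq promoter table of build GRCm38.p6. That table held 6 of the 10 genes, and Tbx15, Meox1, Osr1 and Osr2 were not matched. Each sequence begins 250 bases before the RefSeq start and is written 5′ to 3′ on the strand of the gene. It stops before any base that a longer annotated transcript contains, which leaves 190 bases for Prrx1 and 247 for Foxd1. Capitals mark matches, on either strand, to the E-box CANNTG, the GATA motif GATAA or the TATA motif TATAA.
Twist1, chr12:33957421-33957670, plus strand: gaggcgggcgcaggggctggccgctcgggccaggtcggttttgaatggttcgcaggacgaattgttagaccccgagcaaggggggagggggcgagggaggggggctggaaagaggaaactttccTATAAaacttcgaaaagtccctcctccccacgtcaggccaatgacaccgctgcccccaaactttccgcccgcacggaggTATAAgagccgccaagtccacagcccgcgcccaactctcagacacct
Twist2, chr1:91801211-91801460, plus strand: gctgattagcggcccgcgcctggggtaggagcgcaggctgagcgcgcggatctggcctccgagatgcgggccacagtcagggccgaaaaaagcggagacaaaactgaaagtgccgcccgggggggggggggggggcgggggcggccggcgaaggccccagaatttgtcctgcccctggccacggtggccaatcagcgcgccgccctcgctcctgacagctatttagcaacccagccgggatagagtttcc
Prrx1, chr1:163313711-163313900, minus strand: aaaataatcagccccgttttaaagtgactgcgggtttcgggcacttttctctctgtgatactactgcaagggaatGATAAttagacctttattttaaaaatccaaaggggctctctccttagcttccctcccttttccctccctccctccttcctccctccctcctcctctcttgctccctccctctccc
Foxd1, chr13:98353995-98354241, plus strand: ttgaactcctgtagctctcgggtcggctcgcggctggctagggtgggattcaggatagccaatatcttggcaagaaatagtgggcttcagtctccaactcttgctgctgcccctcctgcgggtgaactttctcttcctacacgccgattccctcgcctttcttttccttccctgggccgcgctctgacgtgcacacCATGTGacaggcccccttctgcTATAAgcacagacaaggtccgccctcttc
Twist1 had 2 matches to TATAA, which begin 126 and 47 bases before the start, and Foxd1 had 1 that begins 32 bases before it. Of the 6 windows of 250 bases, 1 (Foxd1) held CANNTG, against 66.2% of the 32841 windows in the table. GATAA was found in 2 of the 6 (Prrx1 and Tcf21), against 22.6% of all windows, and TATAA in 2 of the 6, against 22.8%. These counts used the full windows, including bases that a longer annotated transcript contains. Such a transcript held 308 bases before the start of Prrx2, more than its window. For Tcf21 it held 31 bases, and the GATAA match of Tcf21 begins 30 bases before the start. The matches are letters in these windows and were not tested as binding sites. The start of Twist2 in the expression files lies 16 bases downstream of the RefSeq start and that of Tcf21 15 bases downstream, while the other 4 starts are the same.

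The supplied factors were checked next. Tal1 was 62.0 FPKM at day 12 and 347 FPKM at day 21 in SL, and 58.1 and 119 FPKM in SFGL, against 0.0414 and 0.415 FPKM in uFIB. Lmo2 was 57.0 and 151 FPKM in SL, 48.4 and 128 FPKM in SFGL and 36.2 and 66.5 FPKM in the libraries labelled FGL, against 0.499 and 2.28 FPKM in uFIB. In SL, whose labels name neither, Gata2 was 68.8 and 62.6 FPKM and Fli1 46.7 and 34.4 FPKM, and RNA from a vector cannot be told apart here from RNA of the cells' own gene. The libraries labelled FGL ran against their label in part. Tal1 was 7.04 FPKM in the one of day 12, which also held 170 FPKM in sum over 18 blood markers, and Fli1 was 3.35 FPKM in the one of day 21, against 3.02 FPKM in uFIB of that day.

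The untreated cells carried 9 of the 10 factors at 1 FPKM or more on both days, and 18 of 18 structural markers of fibroblasts were at 1 FPKM or more in both uFIB libraries. Prrx1 was the highest of the 10, followed by Twist1, Prrx2, Tbx15, Osr1, Twist2, Meox1, Foxd1, Osr2 and Tcf21 in the order of the mean over both uFIB libraries. Prrx1 at day 12 exceeded 97.5% of all genes, and Osr2 at day 12 exceeded 51.1%. The neighbours Tbx15 (15.5 to 24.3 FPKM) and Osr1 (17.0 to 18.5 FPKM) overlapped between the days, as did Meox1 (3.82 to 4.10 FPKM) with Foxd1 (3.12 to 3.89 FPKM) and Foxd1 with Osr2 (2.61 to 3.15 FPKM), and these neighbours cannot be ranked.

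In SL and SFGL, 9 of the 10 factors were lower in all 4 libraries than in both untreated libraries, an order that 36.5% of all genes with 1 FPKM in any of these 6 libraries also showed, and Tcf21 was at or near 0. Prrx1 fell to 20.9% (SL) and 18.2% (SFGL) of its uFIB level by day 12, while Twist1 kept 46.3% and 41.1%. In the libraries labelled FGL, most of the factors stayed near the level of uFIB. These are bulk samples, in which fewer fibroblasts and less RNA per fibroblast cannot be told apart.

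**Figure D1:**
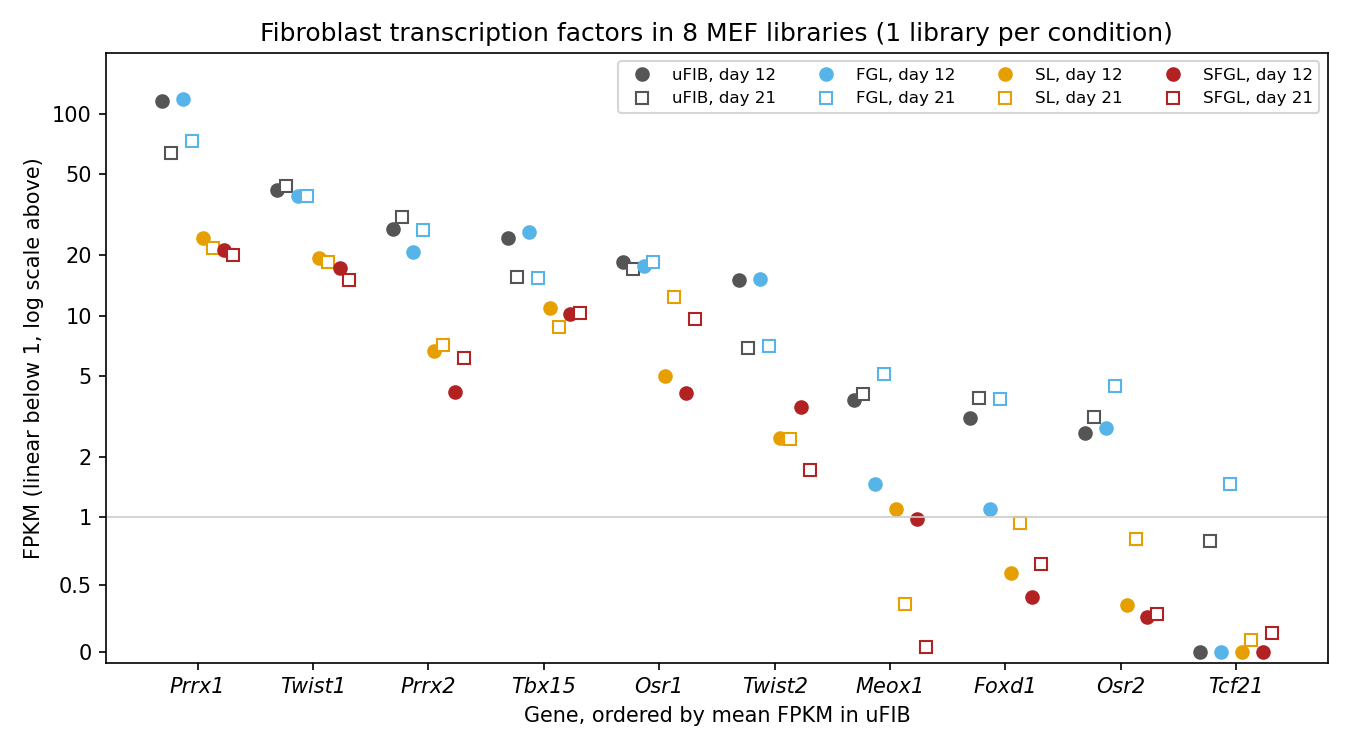
FPKM of each of the 10 genes (vertical axis, linear below 1 and logarithmic above) in the 8 MEF libraries, with filled circles for day 12 and open squares for day 21, 1 point per library. The SL and SFGL points lie below both uFIB points for every gene but Tcf21, as for 36.5% of all genes, and Tcf21 is at 0 in all 4 libraries of day 12.

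The TWIST factors differed in how much remained. Twist1 (chr12:33957671-33959831), a regulator of mesenchymal identity and of epithelial-mesenchymal transition, was 41.7 FPKM in uFIB, 39.3 in the library labelled FGL, 19.3 in SL and 17.1 in SFGL on day 12, and 43.9, 39.3, 18.4 and 15.0 FPKM in the same order on day 21. Its 4 SL and SFGL values sit well apart from the other 4. Twist2 (chr1:91801477-91848027), a regulator of the dermis, was 15.0 FPKM in uFIB, 15.1 in the library labelled FGL, 2.46 in SL and 3.52 in SFGL on day 12, and 6.94, 7.07, 2.44 and 1.72 FPKM on day 21. Twist2 was lower at day 21 in uFIB itself, and the SL and SFGL values lie below both days of uFIB.

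The PRRX factors kept less of their uFIB level than Twist1 did. Prrx1 (chr1:163245119-163313650) was 115 FPKM in uFIB, 119 in the library labelled FGL, 24.1 in SL and 21.0 in SFGL on day 12, and 63.8, 73.6, 21.6 and 20.1 FPKM on day 21. The SL and SFGL values differed little between days, whereas uFIB kept 55.4% of its day 12 value at day 21, so that Prrx1 was 4.78-fold lower in SL than in uFIB at day 12 and 2.95-fold lower at day 21. Prrx2 (chr2:30845367-30881247) was 27.0 FPKM in uFIB, 20.6 in the library labelled FGL, 6.70 in SL and 4.17 in SFGL on day 12, and 30.7, 26.6, 7.12 and 6.19 FPKM on day 21. Its fall in SL was 4.03-fold at day 12 and 4.32-fold at day 21, close on both days.

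Tbx15 and Osr1 were the members least reduced at day 21. Tbx15 (chr3:99253760-99354260) was 24.3 FPKM in uFIB, 26.0 in the library labelled FGL, 11.0 in SL and 10.2 in SFGL on day 12, and 15.5, 15.3, 8.79 and 10.3 FPKM on day 21. Osr1 (chr12:9574442-9581500), which acts in the intermediate mesoderm that forms the kidney, was 18.5 FPKM in uFIB, 17.7 in the library labelled FGL, 5.01 in SL and 4.13 in SFGL on day 12, and 17.0, 18.4, 12.4 and 9.63 FPKM on day 21. At day 21, Osr1 kept 72.8% of the uFIB level in SL and 56.5% in SFGL, and Tbx15 56.6% and 66.3%. Osr2 (chr15:35296112-35303305), known for its part in palate growth, was 2.61 FPKM in uFIB, 2.76 in the library labelled FGL, 0.348 in SL and 0.256 in SFGL on day 12, and 3.15, 4.45, 0.837 and 0.281 FPKM on day 21.

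Meox1 (chr11:101877510-101894354) was 3.82 FPKM in uFIB, 1.46 in the library labelled FGL, 1.10 in SL and 0.984 in SFGL on day 12, and 4.10, 5.15, 0.359 and 0.0352 FPKM on day 21. Foxd1 (chr13:98354245-98356705) was 3.12 FPKM in uFIB, 1.11 in the library labelled FGL, 0.588 in SL and 0.405 in SFGL on day 12, and 3.89, 3.87, 0.956 and 0.655 FPKM on day 21. Both genes were lower in the library labelled FGL of day 12 than in uFIB, and at day 21 Meox1 was above uFIB and Foxd1 at 99.6% of it. The number of reads behind values this low is not known, and the ratios formed from them are uncertain. Tcf21 (chr10:22817275-22820128) was listed at 0 in all 4 libraries of day 12 and was 0.823 FPKM in uFIB, 1.46 in the library labelled FGL, 0.0881 in SL and 0.138 in SFGL on day 21. Tcf21 was 1 of 3 genes in the table listed at 0 in every library of day 12 and above 0 in every library of day 21. The reverse held for 16 genes, at 0 in every library of day 21 and above 0 in every library of day 12.

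For the counts that follow, a gene was called lower or higher when its log2(FPKM + 1) differed by at least 1 and the higher library had at least 1 FPKM, a scale that understates the change of low genes. With 1 library per condition there is no replicate check and no test, and SL, SFGL and FGL of a day share the same uFIB library. In SL, 9 of the 10 members were called lower than uFIB at day 12, where 13.5% of all genes with 1 FPKM in either library were, and 7 were at day 21, against 12.3% of all genes. In SFGL, 9 members were called lower at day 12, against 17.0% of all genes, and 7 at day 21, against 15.9%. The 7 members called in SL and SFGL on both days were Twist1, Twist2, Prrx1, Prrx2, Meox1, Osr2 and Foxd1. The share of all genes called lower in both conditions on both days was not counted. Tbx15 and Osr1 were called at day 12 and not at day 21, and Tcf21 stayed under 1 FPKM in the libraries compared. In the libraries labelled FGL, 0 members were called lower on either day, against 0.302% of all genes at day 12 and 0.376% at day 21.

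The median log2 change over the 10 members was -1.40 (SL) and -1.54 (SFGL) on day 12, and -1.21 and -1.55 on day 21. Over all genes with 1 FPKM in either library, the median of both conditions was -0.03 at day 12 and -0.04 at day 21. In the libraries labelled FGL, the member medians were -0.03 and 0.07.

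In the library labelled FGL of day 12, a pair of members came near the limit of a call. Meox1 was lower than uFIB by a log2 change of -0.97 and Foxd1 by -0.97, at 38.4% and 35.4% of uFIB. With a pseudocount of 0.1 in place of 1, both were called lower. At day 21, the changes over the 10 members in the library labelled FGL ran from -0.20 for Prrx2 to 0.43 for Tcf21.

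SL and SFGL were then compared. At day 12, 0 members were called lower in SFGL than in SL, against 0.610% of all genes, and at day 21 also 0, against 0.437%. Prrx2 had the largest difference of day 12, with a change of -0.57 on the log2(FPKM + 1) scale from SL to SFGL, and Osr2 that of day 21, with -0.52. Twist2 was higher in SFGL than in SL at day 12, by 0.39, and lower at day 21, by a log2 change of -0.34. A count of 0 in 10 genes is near these shares and says nothing particular of the members. Fli1 and Gata2 were also high in SL. Fli1 was lower in SFGL than in SL, at 41.2 and 27.8 FPKM against 46.7 and 34.4. Gata2 was higher in SFGL, at 110 and 132 FPKM against 68.8 and 62.6 in SL.

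The days are not replicates, but they show how far the values of 1 condition moved. Between day 12 and day 21, 1 member was called in uFIB, against 3.14% of all genes. This was Twist2, with a log2 change of -1.01, a call that is lost when both libraries are scaled to a common upper quartile, followed by Prrx1 with -0.84 and Tbx15 with -0.61. In SL, 1 member was called, against 4.69% of all genes, and in SFGL also 1, against 4.95%. In both conditions this was Osr1, which was higher at day 21 by 1.16 in SL and 1.05 in SFGL, while uFIB differed by -0.11. In the libraries labelled FGL, 3 members were called, against 7.30% of all genes. These were Meox1 and Foxd1, higher at day 21 by 1.32 and 1.21 on the log2 scale, and Tcf21, whose day 12 value was listed at 0, so that no fold is given. Prrx1 and Twist2 followed uFIB there, at 62.1% and 46.7% of their day 12 values.

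Ratios of related genes were also compared. FPKM is scaled to transcript length, so the ratio of a pair can be read within a library. Twist1 was 2.78 and 6.32 times Twist2 in uFIB at day 12 and day 21, 7.83 and 7.56 times in SL, 4.86 and 8.71 times in SFGL, and 2.60 and 5.56 times in the libraries labelled FGL. The uFIB ratios of the days lie further apart than those of SL. Osr1 was 7.07 and 5.42 times Osr2 in uFIB and 6.39 and 4.14 times in the libraries labelled FGL, but 14.4 and 14.8 times in SL and 16.1 and 34.3 times in SFGL. The Osr1 to Osr2 ratio was therefore higher in all 4 SL and SFGL libraries than in either uFIB library, although Osr2 was under 1 FPKM there. Prrx1 was 4.27 and 2.08 times Prrx2 in uFIB, 3.60 and 3.04 times in SL, 5.04 and 3.24 times in SFGL and 5.75 and 2.76 times in the libraries labelled FGL, with all conditions overlapping.

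**Figure D2:**
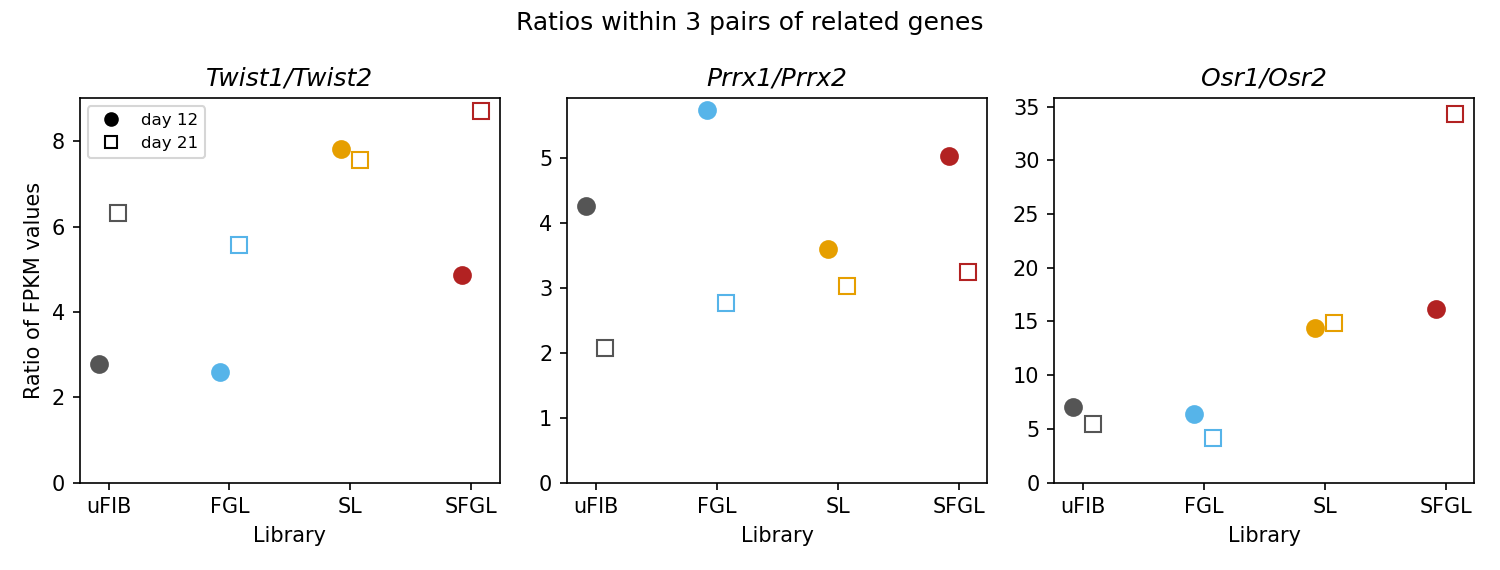
Ratio of the FPKM values of Twist1 to Twist2, Prrx1 to Prrx2 and Osr1 to Osr2 (vertical axes, from 0) in each MEF library, with filled circles for day 12 and open squares for day 21. The Osr1 to Osr2 ratio is 4.14 to 7.07 in uFIB and FGL and 14.4 to 34.3 in SL and SFGL, whereas the Prrx1 to Prrx2 ratios overlap.

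Structural genes of fibroblasts moved with the transcription factors. Col1a1, a chain of type I collagen, was 2409 and 1609 FPKM in uFIB, 784 and 412 in SL, 680 and 285 in SFGL and 1944 and 1542 in the libraries labelled FGL. Col1a2 was 1711 and 1124 FPKM in uFIB, 533 and 275 in SL and 427 and 193 in SFGL, and Col3a1, the chain of type III collagen, was 1877 and 2045, 733 and 312, and 564 and 340 FPKM. Of the 18 structural markers, 18 were called lower in SL and 18 in SFGL on day 12, against 13.5% and 17.0% of all genes. On day 21, 16 and 17 were, against 12.3% and 15.9%. In the libraries labelled FGL, 0 were on either day, against 0.302% and 0.376%. Their summed level was 8863 to 11359 FPKM in uFIB, 2568 to 3787 in SL, 2057 to 3072 in SFGL and 8896 to 9937 in the libraries labelled FGL, with none listed at 0.

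Among genes with 1 FPKM in uFIB, the 9 transcription factors kept a median of 24.8% in SL and 22.4% in SFGL on day 12, and the 18 structural markers kept 32.0% and 25.9%. At day 21, the factors kept 33.9% and 24.8%, and the markers 25.1% and 17.5%. The order of the medians thus turned between the days, with 7 of the 9 factors below the marker median at day 12 and 3 at day 21 in each of SL and SFGL. The factor median of day 21 is Prrx1 in SL and Twist2 in SFGL, and uFIB itself was lower then for both. From day 12 to day 21, Prrx1 went from 24.1 to 21.6 FPKM in SL and from 115 to 63.8 in uFIB. Twist2 went from 3.52 to 1.72 FPKM in SFGL and from 15.0 to 6.94 in uFIB. The summed markers in uFIB also went from 11359 to 8863 FPKM. In SFGL, Tbx15 kept more than every structural marker on both days, with 41.8% at day 12, where Thy1 was the highest marker at 39.97%, and 66.3% at day 21, where Dcn was at 64.6%. In SL, no factor lay above the markers, with Tbx15 at 45.1% against 49.4% for Col6a1 at day 12 and at 56.6% against 89.3% for Dcn at day 21. Twist1 also kept more than every marker in SFGL at day 12, with 41.1%. Meox1 kept less than every marker in SFGL at day 21, with 0.858% against 5.11% for Postn. At day 12, Osr2 (13.3%) and Twist2 (16.4%) kept less than every marker in SL, where Postn was the lowest at 17.4%. Osr2 also did in SFGL at day 12, with 9.79% against 12.2% for Mfap5. These shares are ratios of single values and their spread is not known.

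**Figure D3:**
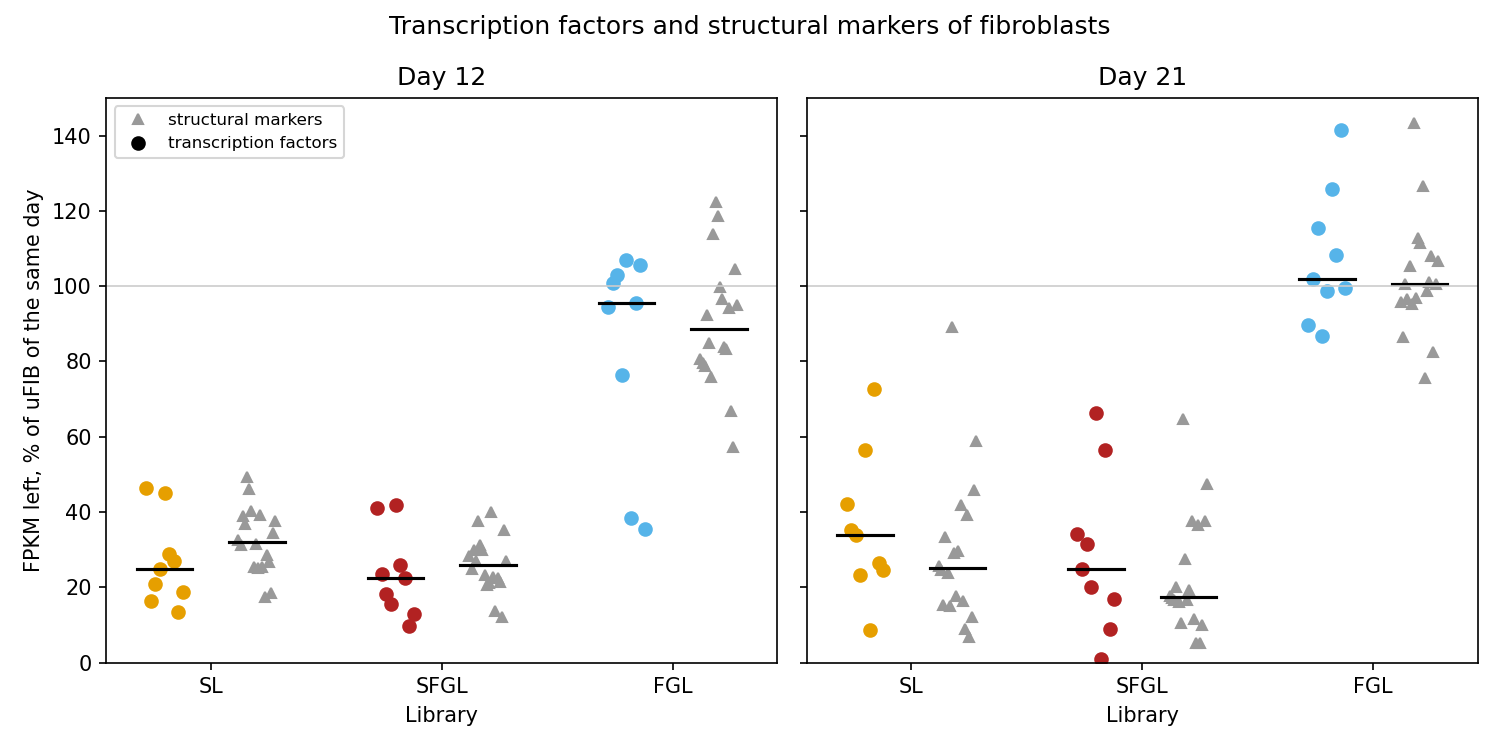
FPKM as a percent of uFIB of the same day (vertical axis, from 0) for the 9 transcription factors (circles) and 18 structural markers (triangles) with at least 1 FPKM in uFIB, in 1 SL, SFGL and FGL library per day, with horizontal bars at the medians. In SL the factor median lies below the marker median at day 12 (24.8% against 32.0%) and above it at day 21 (33.9% against 25.1%). The factor median of day 21 is Prrx1, which was 115 FPKM in uFIB at day 12 and 63.8 at day 21.

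Markers of other cells also moved with the fall. The 18 blood markers summed to 11.0 to 27.6 FPKM in uFIB, 918 to 1500 in SL, 1312 to 1769 in SFGL and 19.5 to 170 in the libraries labelled FGL. Tyrobp, an adaptor protein of myeloid cells, was 310 and 119 FPKM in SL against 0.152 and 1.49 FPKM in uFIB, and Laptm5 and Myb moved the same way. In uFIB, 5 of the 18 were listed at 0 at day 12, among them Gata1 and Hbb-y, and 2 at day 21. The 8 cell cycle genes summed to 93.5 to 95.6 FPKM in uFIB, 345 to 432 in SL, 354 to 406 in SFGL and 89.3 to 134 in the libraries labelled FGL, with Pcna, Top2a and Mcm2 the highest over the uFIB libraries. The 8 endothelial markers summed to 11.0 FPKM in uFIB on each day, 24.8 to 29.4 in SL, 27.9 to 34.1 in SFGL and 13.7 to 16.2 in the libraries labelled FGL, with Pecam1, Eng and Cdh5 the highest in the mean over SL and SFGL. The single genes did not all rise. Pecam1 went from 0.0896 FPKM untreated to 10.5 (SL) and 26.4 (SFGL) at day 12, and from 0.0627 to 6.7 and 14.8 at day 21. Eng, at 8.30 and 9.68 FPKM untreated, was 7.41 and 14.6 with SL but 4.57 and 7.36 with SFGL. Kdr at day 12 and Tek at day 21 were lower with both. Of those at 1 FPKM in either library, 3 of 5 (SL) and 1 of 3 (SFGL) were called higher at day 12. Over all genes, 1749 of 12332 (SL) and 1811 of 12326 (SFGL) were. At day 21, 3 of 4 endothelial markers were called higher with each, against 1470 of 12371 (SL) and 1732 of 12415 (SFGL) of all genes. None of these markers was called lower on either day. The 8 smooth muscle markers, led in uFIB by Acta2, Tagln and Myl9, summed to 314 to 659 FPKM in uFIB. Their sum was lower in SL, at 126 to 230 FPKM, and in SFGL, at 183 on each day. In the libraries labelled FGL it was 660 to 800 FPKM. At day 12, 6 of 7 with 1 FPKM in either library were called lower in SL and 5 of 7 in SFGL. The shares of all genes were 13.5% and 17.0%. At day 21, 0 of 8 were called lower in SL, where 1 was called higher, and 1 of 8 was called lower in SFGL. The shares of all genes called lower were then 12.3% and 15.9%, and 1470 of 12371 genes were called higher in SL. The part of any of these in the fall of the transcription factors was not tested.

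Other mesenchymal transcription factors fell as well. Of 72 measured genes in lists of relatives of the members and of further mesenchymal factors, 54 reached 1 FPKM in uFIB. A call needs 1 FPKM in either library, which 50 of the 72 had in SL and 50 in SFGL on day 12, and 53 and 51 on day 21. Of these, 28 were called lower in SL and 32 in SFGL on day 12, against 13.5% and 17.0% of all genes. On day 21, 27 and 31 were, against 12.3% and 15.9%. In both conditions on both days, 24 were called lower and 0 were called higher. The matching share of all genes was not counted, so these 2 counts have no measure beside them. The 8 highest in uFIB were Nfix, Ebf1, Creb3l1, Tead1, Snai1, Zeb2, Nfib and Snai2. Snai2, a zinc finger factor of neural crest and of epithelial-mesenchymal transition, was 25.6 and 34.7 FPKM in uFIB, 6.59 and 7.17 in SL and 4.90 and 3.90 in SFGL. Ebf1, which also acts in B cells, was 47.3 and 51.7 FPKM in uFIB, 12.7 and 9.34 in SL and 9.995 and 6.87 in SFGL. Nfix was 72.4 and 68.1 FPKM in uFIB and 13.3 to 23.2 in SL and SFGL, and Nfib was 33.4 and 27.4 FPKM in uFIB and 4.73 to 7.21 in SL and SFGL. Snai1 and Zeb2 were called lower in all 4 SL and SFGL libraries, while Tead1 was not called in SL at day 21 and Creb3l1 not in SL on either day, with log2 changes of -0.55, -0.96 and -0.75. In SFGL, Wt1 was called higher at day 21, and 0 of the 72 were called higher at day 12. In the libraries labelled FGL, 1 of 50 was called lower at day 12 and 0 of 57 at day 21, against 0.302% and 0.376% of all genes. Pitx1 was called higher there at day 21.

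The partners of the TWIST factors did not move as a group. E proteins bind DNA together with TWIST or TAL1, and ID proteins hold E proteins off DNA. Of the 7 genes, 3 were called lower and 2 higher in SL at day 12, 2 lower and 2 higher in SL at day 21, and 3 lower and 2 higher in SFGL on each day. Of all genes, 1660 were called lower and 1749 higher of 12332 in SL at day 12, and 1520 and 1470 of 12371 at day 21. In SFGL, 2091 were called lower and 1811 higher of 12326 at day 12, and 1970 and 1732 of 12415 at day 21. Tcf3 was 26.2 and 23.0 FPKM in uFIB, 29.6 and 26.1 in SL and 27.8 and 27.9 in SFGL, and was not called in any of them. Tcf4 was 28.5 and 29.4 FPKM in uFIB and 7.87 to 11.7 in SL and SFGL, and Tcf12 was 36.9 and 31.8 FPKM in uFIB and 19.8 to 22.9 in SL and SFGL, where it was not called. Id1 was 25.9 and 30.4 FPKM in uFIB, 76.6 and 66.1 in SL and 80.8 and 62.3 in SFGL, and Id2 was 19.8 and 11.1 FPKM in uFIB and 36.4 to 43.3 in SL and SFGL, both called higher in all 4 libraries. Id4 was 39.1 and 29.0 FPKM in uFIB and 4.76 to 7.92 in SL and SFGL. Id3 was 97.2 and 86.6 FPKM in uFIB, 23.1 and 52.3 in SL and 11.7 and 32.5 in SFGL, and was not called in SL at day 21. Of the 7, 0 were called in the libraries labelled FGL.

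The genes outside all lists whose pattern over the 8 MEF libraries was most like the mean pattern of the 9 expressed members were Arhgef10, B3galnt1, Camk2d, Vasn and Rab34. Likeness was the root mean square distance of log2(FPKM + 1) values after each gene was centred on its own mean. It was 0.06 for Arhgef10 and 0.07 for each of the other 4, as a description over 8 libraries that share their controls. Arhgef10 was 14.0 and 12.4 FPKM in uFIB, 4.43 and 5.00 in SL, 3.92 and 3.46 in SFGL and 12.1 and 12.7 in the libraries labelled FGL. Among the members, Twist1 was nearest to their own mean pattern, at 0.17 and place 177 of 12794 genes, and Osr2 was next at 0.21. The other 7 in the mean stood between 0.31 and 0.44, and Tcf21, which was left out of the mean, stood at 0.66.

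In the stages from ESC to macrophage, 3 of the 10 genes reached 1 FPKM in ESC, MES and HB and 0 did in HP and MAC. The shares of all genes at 1 FPKM were 50.2% (ESC), 49.4% (MES), 48.5% (HB), 48.7% (HP) and 49.3% (MAC). The 3 genes were Twist1, Twist2 and Prrx2. There is 1 deposited value per stage, with no replicate spread, and no test was run.

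Twist1 was highest in HB at 8.15 FPKM and in MES at 6.29 FPKM, followed by 1.13 FPKM in ESC, 0.659 FPKM in HP and 0.160 FPKM in MAC. Prrx2 was 2.77, 2.41, 3.52, 0.802 and 0 FPKM from ESC to MAC, and Twist2 was 1.02, 1.37, 1.17, 0.517 and 0.0217 FPKM. These 3 genes were each lower in HP than in HB and lower again in MAC. Prrx1, the highest of the 10 in untreated MEFs, was between 0 and 0.0500 FPKM over the stages, and Osr1 was between 0 and 0.0221 FPKM. Tbx15 was 0.0757 to 0.443 FPKM, with its highest value in MAC, Meox1 was 0 to 0.252 FPKM with its highest in HB, and Foxd1 was 0.0257 to 0.174 FPKM with its highest in ESC. Osr2 was 0.0195 to 0.106 FPKM. Tcf21 was 0.700 FPKM in HP and at most 0.0847 FPKM in the other 4 stages. In MAC, 4 of the 10 (Prrx1, Prrx2, Meox1 and Osr1) were listed at 0.

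From ESC to MES, 1 member was called, Twist1, which was higher by 1.77 on the log2 scale, and 14.2% of all genes were called either way. From MES to HB, 0 members were called, against 5.83% of all genes. From HB to HP, which are not neighbouring stages, Twist1 and Prrx2 were called lower, with log2 changes of -2.46 and -1.33, against 17.7% of all genes. From HP to MAC, 0 members were called, against 47.3% of all genes, and all 10 were under 1 FPKM in both stages. Summed over the 17 measured, structural fibroblast markers came to 14.7 FPKM in ESC, 29.2 FPKM (MES), 57.3 FPKM (HB), 81.8 FPKM (HP) and 8.95 FPKM (MAC), but their highest stages differed. Postn (23.2 FPKM) and Col1a2 (17.6 FPKM) were highest in HP, whereas Pdgfra (16.7 FPKM), Fbln2 (17.7 FPKM) and Fbn1 (6.92 FPKM) were highest in HB, as Twist1 was. In ESC, which had been grown on MEFs, 4 of the 17 were at 1 FPKM or more, namely Col5a1 at 3.54, Thy1 at 2.89, Postn at 1.496 and Fbln2 at 1.10 FPKM, and Fap was listed at 0. The part of residual fibroblasts in the values of any stage was not tested.

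**Figure D4:**
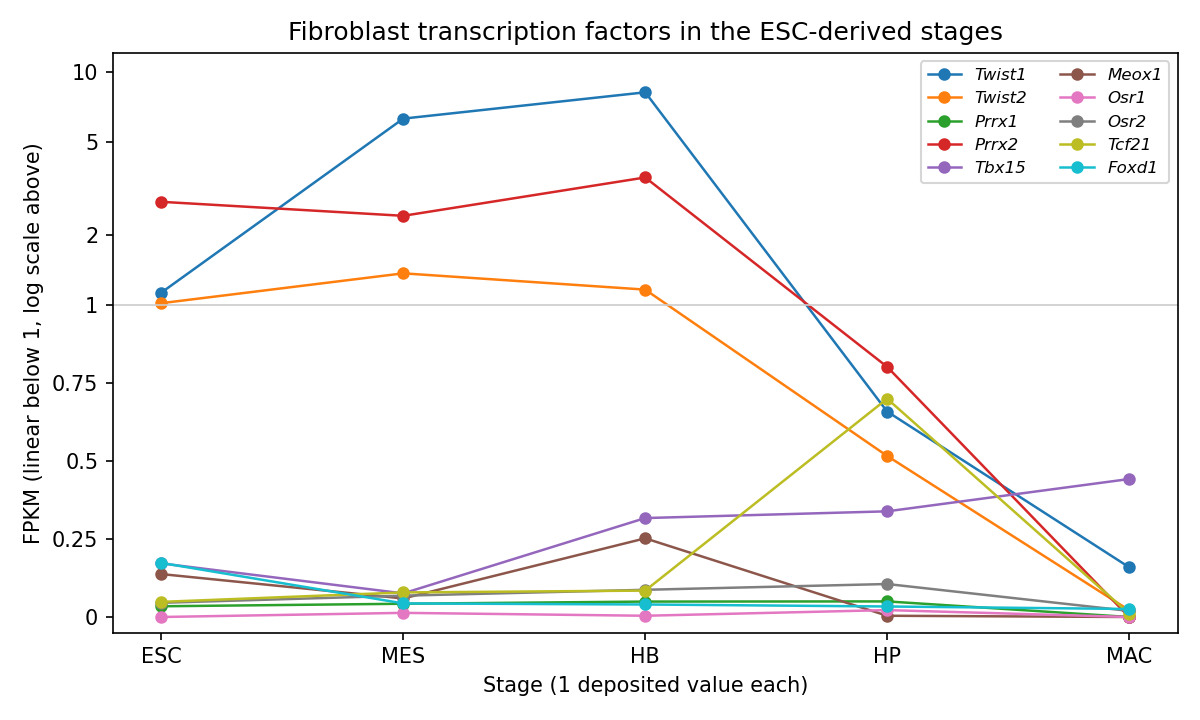
FPKM of the 10 genes (vertical axis, linear below 1 and logarithmic above) at the 5 stages from ESC to MAC, 1 deposited value per gene and stage, with lines that join the values of a gene, across the hemogenic endothelium stage between HB and HP that was not analysed here. Twist1, Prrx2 and Twist2 are above 1 FPKM in ESC, MES and HB and every gene is below 1 FPKM in HP and MAC.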

How the data were processed

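RNA-seq was analysed from 8 MEF libraries and from 5 stages with 2 replicates each, 18 samples in all. The FPKM values are those the authors deposited, made with TopHat and Cufflinks for the MEFs and Cufflinks for the stages on build mm10, as the submitters' processing notes name them, and versions are not given in the sources used here. In the stage table, replicates are combined and rows are transcription start sites, which were summed per gene, with 1 row for each of the 10 genes. In that table, 1 stage column, hemogenic endothelium, of a sample from another series was not used. Reads per library are not recorded in FPKM. From the steps of values under 0.3 FPKM, depth relative to uFIB of day 12 was 0.590 to 1.56, but only 15.1% to 19.1% of low genes shared a step, so reads could not be recovered and no count test was run. Whether counting used strand is not given there either.

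Changes were differences of log2(FPKM + 1). Calls needed a change of at least 1 and 1 FPKM in the higher library. The call rule was tested on simulated data. The named genes were all 10 members, the supplied factors, all E protein and ID genes, the 8 highest of the wider lists in uFIB, the 3 highest of each marker list and the 5 nearest in pattern. The members, lists and rules were chosen with earlier results of these data known. No test taking both days together was run. Alternatives were a pseudocount of 0.1, no minimum or 5 FPKM, a common upper quartile, a 4-fold limit, the mean of both uFIB libraries, and stage limits of 0.3 and 3 FPKM. Python 3.11.15 with NumPy 2.4.6, pandas 2.3.3 and matplotlib 3.10.9 was used.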

Additional observations from a re-analysis of the deposited data

Results flagged for a closer look

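For 3 members the libraries labelled FGL moved in opposite directions from uFIB on the 2 days, with 1 library per day, and the difference was not tested. For Meox1, the log2 change was -0.97 at day 12 and 0.27 at day 21, a difference of 1.24. For Osr1, it was -0.06 and 0.11, a difference of 0.17, and for Tbx15 it was 0.09 and -0.02, a difference of -0.11.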

How the results depend on the processing

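Of 105 values recomputed under an alternative for 23 results, 81 stayed within 1.5 times the reported value, 24 moved further and 0 of those past a limit changed direction. A limit of 4-fold in place of 2-fold was also applied on the log2(FPKM + 1) scale. The members called lower than uFIB were then 2 (SL) and 2 (SFGL) at day 12 and 0 (SL) and 2 (SFGL) at day 21. Those called between days were 0 in uFIB, SL, SFGL and FGL. In FPKM itself, Prrx2, Meox1 and Foxd1 were 4.32-fold, 11.4-fold and 4.07-fold lower in SL than in uFIB at day 21. With 5 FPKM as the minimum, 4 in SL and 4 in SFGL were called lower than uFIB at day 21, and 1 between days in FGL, since fewer genes reach the minimum. With a pseudocount of 0.1, 2 were called lower in FGL at day 12 and 2 between days in SL. Against the mean of both uFIB libraries, 2 were called lower in FGL at day 12. The FGL median change of day 12 was -0.0618 over members with 1 FPKM, -0.0814 against the mean of both uFIB libraries and -0.00194 with a common upper quartile, and that of day 21 was -0.0304 against the mean of both uFIB libraries and -0.0333 with a common upper quartile, all near 0. With a common upper quartile, 0 members were called between days in uFIB. By stage, a limit of 3 FPKM left 0 members in ESC and 1 in MES, and a limit of 0.3 FPKM gave 5 in HP and 1 in MAC. No paired analysis was possible because the results come from no test and the labels give no replicate numbers for the MEFs, and a fit with the day as a block was not run. With 1 library per condition and no read numbers, neither the spread nor the counting error of any value is known, which weighs most on Meox1, Osr2, Foxd1 and Tcf21, whose values in SL and SFGL are near or under 1 FPKM.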
